A study of Mus musculus with 11 samples.

Results

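Cytosolic ribosomal protein genes were followed through 3 stages of a mouse mammary tumour driven by Wnt1. Members were all probe sets whose gene symbol starts with Rpl or Rps and a number, together with Rplp0, Rplp1, Rplp2 and Rpsa, without the Rps6k kinases and without pseudogenes. The rule found 67 genes among the 23835 named genes tested. Of these, 56 are ribosomal proteins by name, 9 are paralogues (Rpl3l, Rpl6l, Rpl7l1, Rpl10l, Rpl32l, Rpl36al, Rpl39l, Rps4l and Rps27l), 1 is a retroposed copy (Rps23rg1) and 1 is a binding partner of a ribosomal protein (Rps19bp1). By name, 27 belong to the small subunit and 40 to the large subunit. A further 24 protein-coding genes of the rule, Rpl11, Rps6 and Rplp2 among them, were not analysed here.

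The tumour cells carried the transgenes MMTV-rtTA and TetO-Wnt1, so that doxycycline switches on Wnt1 in mammary epithelial cells, and were labelled with H2B-eGFP. They were grown in the mammary gland of female nu/nu mice given doxycycline, a strain without a thymus that lacks most T cells. All 11 arrays share this genotype and host. Primary tumour cells (4 arrays) came from mice on doxycycline, residual lesion cells (3 arrays) were taken 28 days after the drug was withdrawn to turn Wnt1 off, and recurrent tumour cells (4 arrays) came from tumours that grew back. Each array measured the total RNA of 1 sample of cells isolated as positive for the fluorescent protein. The labels do not tell whether each array is a different mouse, and the p-values therefore cover the spread among these samples, part of which may be technical. In bulk RNA, fewer cells of a type and less RNA per cell cannot be told apart.

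The cytosolic ribosome joins a small subunit, which reads the messenger RNA, to a large subunit, which forms the peptide bond. Ribosomal proteins are made in near-equal numbers and assembled with ribosomal RNA in the nucleolus. Their messages begin with a run of pyrimidines, the terminal oligopyrimidine (TOP) motif, through which mTORC1 and the RNA-binding protein Larp1 control their translation, and MYC is a known driver of their transcription. Proliferating cells spend much of their transcription on ribosomes, and a paralogue can replace the usual protein in some tissues, as Rpl3l does in muscle and Rpl10l and Rpl39l in testis.

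Start sites are shown for the 2 members with the largest fitted differences (Rps15, Rps24), a member lower in both later stages (Rpl41), a paralogue that fell with its parent that did not pass (Rps27l, Rps27) and a member whose level passed in no comparison (Rps15a). Each line is the reference DNA from 40 bases before to 20 bases after the start annotated by RefSeq (GRCm38.p6), on the gene's own strand, with its longest unbroken run of C and T in capitals (the first of 2 equal runs in Rpl41 and Rps27l).
Rps15: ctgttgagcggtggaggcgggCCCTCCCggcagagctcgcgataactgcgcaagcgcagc
Rps24: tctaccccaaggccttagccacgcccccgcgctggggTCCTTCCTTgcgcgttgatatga
Rpl41: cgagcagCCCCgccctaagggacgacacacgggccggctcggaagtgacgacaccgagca
Rps27l: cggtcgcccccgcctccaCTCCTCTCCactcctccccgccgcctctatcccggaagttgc
Rps27: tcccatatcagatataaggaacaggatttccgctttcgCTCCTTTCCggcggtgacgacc
Rps15a: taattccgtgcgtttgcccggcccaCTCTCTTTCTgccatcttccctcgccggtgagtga
The marked run spans the annotated start in Rps24 and Rps27 and lies before it in the other four, and it is only 4 bases long in Rpl41 and 7 in Rps15. The windows lie at chr10:80292391-80292450 (Rps15, plus strand), chr14:24490638-24490697 (Rps24, plus strand), chr10:128549149-128549208 (Rpl41, minus strand), chr9:66946046-66946105 (Rps27l, plus strand), chr3:90213629-90213688 (Rps27, minus strand) and chr7:118116128-118116187 (Rps15a, minus strand). Of 67 members, 49 matched a start in the reference table. A run of at least 8 pyrimidines on the sense strand lay in the 60-base window of 42.9% of these members, against 24% of 27025 genes, whereas on the other strand the shares were 16.3% and 24.8%. CTTTCC, on either strand of the 300 bases around the start, was present in 46.9% of members and 26.3% of all genes. The ETS-type motif CGGAAG was present in 63.3% of members and 17.2% of all genes, and the E-box CACGTG in 8.16% and 7.24%. CTTTCC can lie inside a run of pyrimidines, so these searches overlap. A match describes the letters of the window and is not a site. Split by the test described next, the pyrimidine run lay in 38.5% of 26 members that fell in residual cells and in 47.8% of 23 that did not pass. CGGAAG lay in 65.4% and 60.9% of them. CTTTCC lay in 57.7% (15 members) and 34.8% (8 members), and CACGTG in 11.5% (3 members) and 4.35% (1 member). The differences in this split were not tested.

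Values are log2 signals, on which a difference of 1 is a 2-fold change. Signals of different probe sets are not compared as levels of the genes. A background level of 4.05 was set from 1066 olfactory receptor genes, a class mammary cells are not known to use, as the median over arrays of their 95th percentile. On single arrays that percentile was 4.34 to 4.38 in residual cells, against 3.96 to 4.02 in primary cells, and 4.03 to 4.09 in recurrent cells, so it moved with the residual group, and its part in the results was not tested. Of the 38 members called lower in residual than in primary cells below, 30 had every residual array above that array's own percentile, 4 had none and 4 had some. Over all arrays, 56 members had a mean above it and 11 did not (among them Rpl3, Rpl3l, Rpl7, Rpl10, Rpl10l, Rpl29, Rpl32l, Rps2, Rps16 and Rps23rg1), while 44 were above it on every array and 5 on none. A dim signal here is that of a probe set and cannot be read as a low level of the gene. Rpl3 and Rps16, ribosomal proteins by name, are among the dim ones, and the cause was not tested. Residual arrays had a narrower spread of signals over all genes than primary arrays, with interquartile ranges of 3.57 to 3.60 against 3.77 to 3.84, and recurrent arrays 3.71 to 3.78. Wnt1 read 2.89 to 3.26 on all 11 arrays, below the background level, so it checks nothing about the switch.

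Fibroblast markers moved with the groups although the cells were labelled as tumour cells. Of 10 such markers, 8 were higher in residual than in primary cells (median change 2.57) and 6 were higher in recurrent than in primary cells (2.51), with Dpt at 9.61 ± 1.03 in residual and 4.53 ± 0.52 in primary cells (mean ± SD, n = 3 and 4). Their log2 summed signal was 12.6 to 13.6 on residual arrays against 10.4 to 10.8 on primary arrays, and 12.6 to 13.3 on recurrent arrays. None of the 10 passed between recurrent and residual cells (limma, 1 at an unadjusted p under 0.05). Of 11 macrophage markers 4 were lower in residual than in primary cells, with summed signals of 9.01 to 9.77 against 10.2 to 10.96. Recurrent arrays summed to 9.48 to 10.57. Of the same markers, 1 (Cd14, limma adjusted p = 0.0244) was lower in recurrent than in primary cells, and 0 passed against residual cells. The epithelial keratins Krt8 and Krt18 were well above background in each group, with Krt8 at 8.41 ± 0.21 in residual, 10.1 ± 0.07 in primary and 9.78 ± 0.32 in recurrent cells. Krt14 of the same list was higher in residual cells, at 10.4 ± 0.30 against 7.63 ± 0.46 in primary and 7.08 ± 0.61 in recurrent cells. Krt7 was under background in recurrent cells (3.89 ± 0.71). Of 12 epithelial markers 3 were lower and 2 higher in residual than in primary cells. In recurrent cells 2 were lower than in primary cells, and 3 were lower and 2 higher than in residual cells. Means were above background for 11 of the 12 in residual cells and for 7 in each other group. No marker of endothelium, lymphocytes, adipocytes or erythroid cells passed in any comparison in limma, with 0 to 3 per list at an unadjusted p under 0.05, although the summed endothelial signal reached 10.2 on recurrent array 3, where Cdh5 read 10.13, against at most 5.09 on the other recurrent arrays, 4.69 on residual arrays and 5.72 on primary arrays. Over all genes, 7.61% were lower and 4.81% higher in residual than in primary cells. The shares were 0.986% and 0.818% in recurrent against primary cells, and 2.19% and 3.58% in recurrent against residual cells. The part of these marker changes in the results below was not tested.

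The first comparison asked how ribosomal protein genes differed in cells that survived withdrawal. Most were lower in residual than in primary cells: 38 of 67 members fell and 0 rose, 34 of the 56 ribosomal proteins by name among them. The median member changed by -0.72, which is 1.65-fold lower, with single members between -2.71 and 0.51, and 59 of 67 estimates lay below 0. The median over all 23835 genes was 0.03. Members named for the small subunit (18 of 27 fell, median -0.95) and for the large subunit (20 of 40, median -0.68) took part. The 27 include the binding partner Rps19bp1, which fell, and the retroposed copy Rps23rg1, which did not. A fitted difference of at least 2-fold was found in 22 members that fell. Readings under background allow less for some of them, by the bound given for Rps15 below. It was 1.20-fold for Rpl29, 1.27-fold for Rps14, 1.53-fold for Rps27a and 1.76-fold for Rps29. A member was called at a two-sided limma p under 0.05 after Benjamini-Hochberg adjustment over all genes, a threshold that 7.61% of all genes passed downwards and 4.81% upwards. At an unadjusted p under 0.05, 43 members were lower and 1 was higher, against 3311 and 2830 of all 23835 genes. Every residual array lay below every primary array for 40 of 67 members and for 13.7% of all genes.

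The median member signal on single arrays was 6.02, 5.96 and 5.94 in residual cells, against 6.80, 6.90, 6.63 and 6.72 in primary cells. Recurrent arrays read 6.48, 6.26, 6.89 and 6.41. The residual arrays were thus the 3 lowest, and recurrent array 3 reached the primary range. That array had the highest signal of its group for 46 of 67 members, primary array 2 for 35 of 67, and residual array 2 the lowest for 31 of 67.

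**Figure D1:**
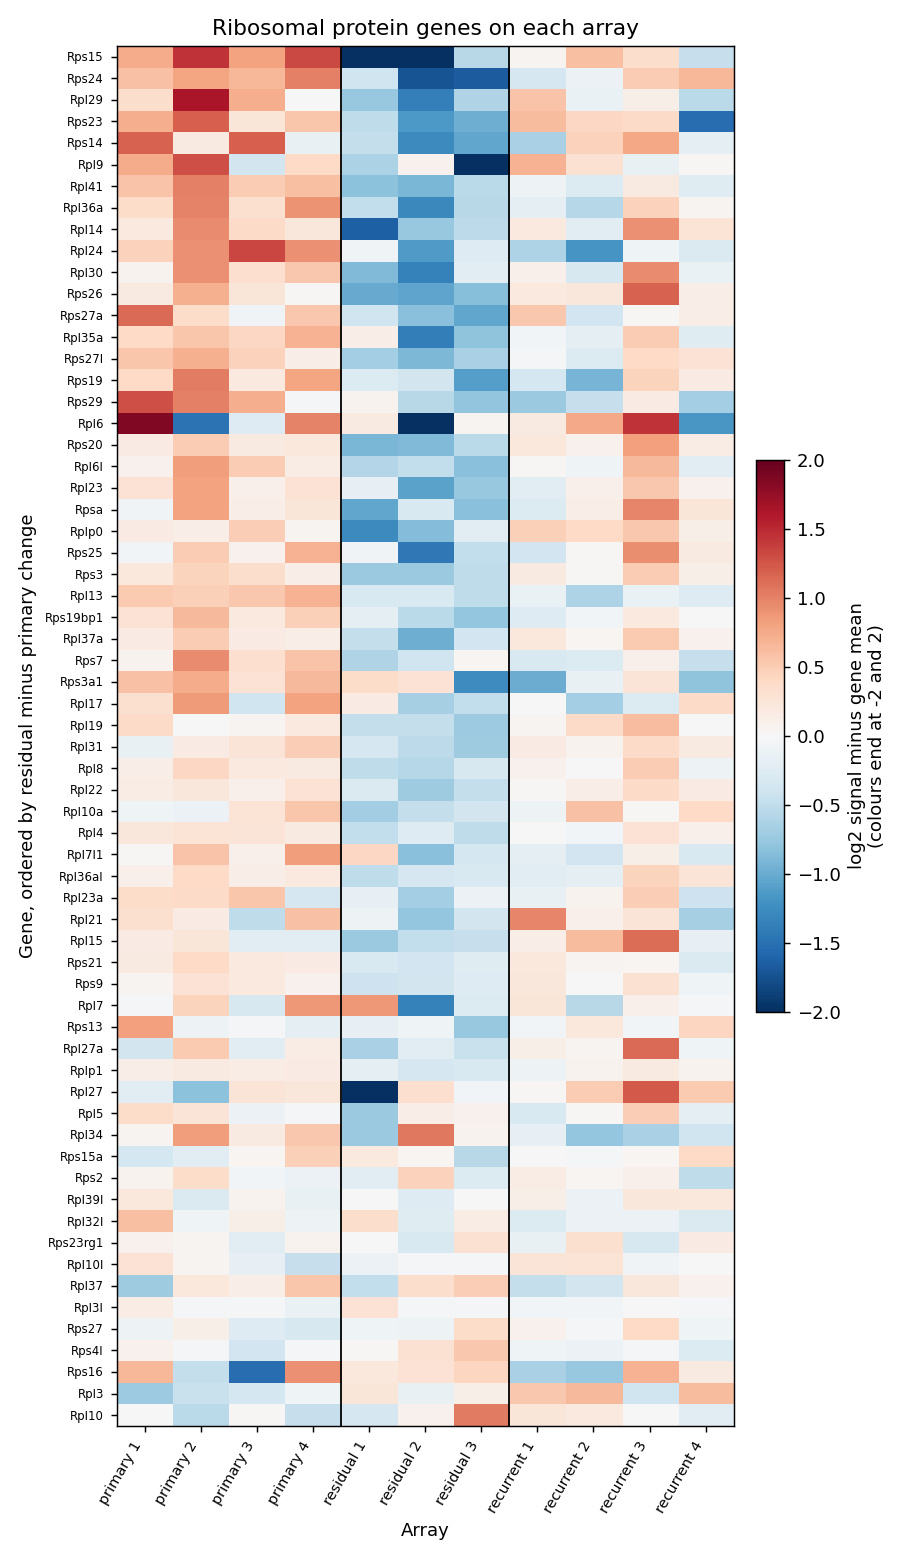
Log2 signal of 64 of the 67 ribosomal protein genes (rows) on each of the 11 arrays (columns), minus the mean of that gene over all arrays, with colours ending at -2 and 2. Rows run from the largest fall in residual against primary cells at the top to the largest positive difference at the bottom. The 3 residual columns are blue for most rows, and rows near the bottom, such as Rps27 and Rps4l, are not.

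Rps15, a small-subunit protein needed for the last steps of subunit maturation, had the largest fitted difference. It read 2.84, 3.06 and 4.57 in residual cells, against 5.87, 6.56, 5.93 and 6.44 in primary cells. Recurrent cells read 5.18, 5.72, 5.46 and 4.66. The residual arrays lay below all others, 2 of them under the background level, and the recurrent arrays lay between the other groups. The fitted difference between residual and primary cells was -2.71 (SE 0.39, limma adjusted p = 0.000933). Since 2 residual arrays gave no signal above their background, its size is better given as at least 3.39-fold lower in residual cells, a bound for which each residual reading was set no lower than its own array's percentile of olfactory receptor genes.

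Rps24, a small-subunit protein mutated in some patients with Diamond-Blackfan anaemia, read 7.15, 5.82 and 5.89 in residual cells, against 8.13, 8.33, 8.21 and 8.55 in primary cells. Recurrent cells read 7.22, 7.43, 8.06 and 8.21. The residual arrays were again the lowest 3, and residual array 1 came close to recurrent array 1. It was 4.05-fold lower in residual than in primary cells (log2 change -2.02, SE 0.33, limma adjusted p = 0.00208).

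Rpl29, Rps23 and Rps14 had the next largest fitted differences among the members that fell. Rpl29, a protein on the surface of the large subunit, read 3.19, 2.58 and 3.34 in residual cells, against 4.29, 5.58, 4.67 and 3.94 in primary cells, close to or under background (log2 change -1.58, limma adjusted p = 0.0154). Rps23, which lies at the decoding centre, read 5.19, 4.55 and 4.73 in residual cells, against 6.42, 6.90, 5.95 and 6.26 in primary cells, and changed by -1.56 (limma adjusted p = 0.0424). Rps14, a small-subunit protein, read 3.63, 2.83 and 3.07 in residual cells, against 5.28, 4.28, 5.30 and 3.95 in primary cells, and changed by -1.53 (limma adjusted p = 0.0286). The residual and primary arrays did not overlap for any of these 3 genes, and all residual readings of Rpl29 and Rps14 were under the background level. By the bound used for Rps15, Rpl29 was at least 1.20-fold and Rps14 at least 1.27-fold lower in residual cells, so their rank among the falls is not measured. Rps23 held its call in 4 of 11 fits that each left out 1 array, and Rps14 in 7 of 11.

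Rpl41, the smallest protein of the ribosome, combined a large fall with little spread. It read 8.02, 7.94 and 8.31 in residual cells, against 9.41, 9.86, 9.35 and 9.45 in primary cells, and changed by -1.43 (SE 0.17, limma adjusted p = 0.000231). Rpl36a and Rpl14 of the large subunit changed by -1.43 (adjusted p = 0.00586) and -1.41 (adjusted p = 0.0116), Rps26 of the small subunit by -1.26 (adjusted p = 0.00665), and Rplp0, the base of the stalk that recruits elongation factors, by -1.0 (adjusted p = 0.0125), all in limma. All 5 genes had residual arrays below every primary array.

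Rps3 and Rps20, both of the small subunit, gave tight groups. Rps3, which also has a known role in DNA repair, read 8.31, 8.32 and 8.56 in residual cells, against 9.27, 9.50, 9.41 and 9.19 in primary cells (log2 change -0.95, SE 0.15, limma adjusted p = 0.00151). Rps20 read 10.18, 10.22 and 10.57 in residual cells, against 11.27, 11.60, 11.28 and 11.31 in primary cells (-1.04, SE 0.19, adjusted p = 0.00404). In both genes the gap between the groups was wider than the range within either group. Other members that fell included Rpl4, Rpl6l, Rpl8, Rpl22, Rpl23, Rpl30, Rpl35a and Rpl37a of the large subunit, and Rps7, Rps9, Rps19, Rps27a, Rps29 and Rpsa of the small subunit, and the binding partner Rps19bp1, with fitted changes between -0.50 (Rps9) and -1.28 (Rpl30). Rps27a had every residual array under its own background and was at least 1.53-fold lower in residual cells. Rpl30 and Rps29 each had 2 such arrays and were at least 2.14-fold and 1.76-fold lower. The residual and primary arrays of Rps29 overlapped. In fits that left out 1 array, the call of Rpsa held in 4 of 11. Those of Rps7, Rps19 and Rps29 held in 6, and those of Rpl30, Rpl35a and Rps9 in 7. Rps27a is made as a fusion with ubiquitin, and Rpsa is also known as a laminin receptor.

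Several members had estimates as large as those that passed and a wider spread. Rpl9 read 3.58, 4.30 and 1.86 in residual cells, against 4.97, 5.50, 3.85 and 4.61 in primary cells, a change of -1.48 with an SE of 0.51 (limma adjusted p = 0.0867). Rpl6 ranged between 1.90 and 4.63 in residual cells and between 2.96 and 6.29 in primary cells (-1.05, SE 0.87, adjusted p = 0.51). Rpl27 read 4.74 on residual array 1, against 7.10 and 6.72 on the other residual arrays. These readings varied within a group by more than 2 units, so their change could not be told from the spread between arrays. The residual readings of Rpl9 were all under their own arrays' percentile of olfactory receptor genes, as was that of Rpl6 on residual array 2. Rpl10a, Rpl15 and Rps25 changed by -0.67, -0.55 and -0.98 without passing (adjusted p = 0.0581, 0.219 and 0.0976), although all residual arrays of Rpl10a and Rpl15 lay below all 8 others. The residual readings of Rpl10a were all under that percentile too. Rpl5, Rpl21, Rpl23a, Rpl27a, Rps13 and Rps3a1 did not pass either, with changes between -0.76 (Rps3a1) and -0.30 (Rpl5).

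**Figure D2:**
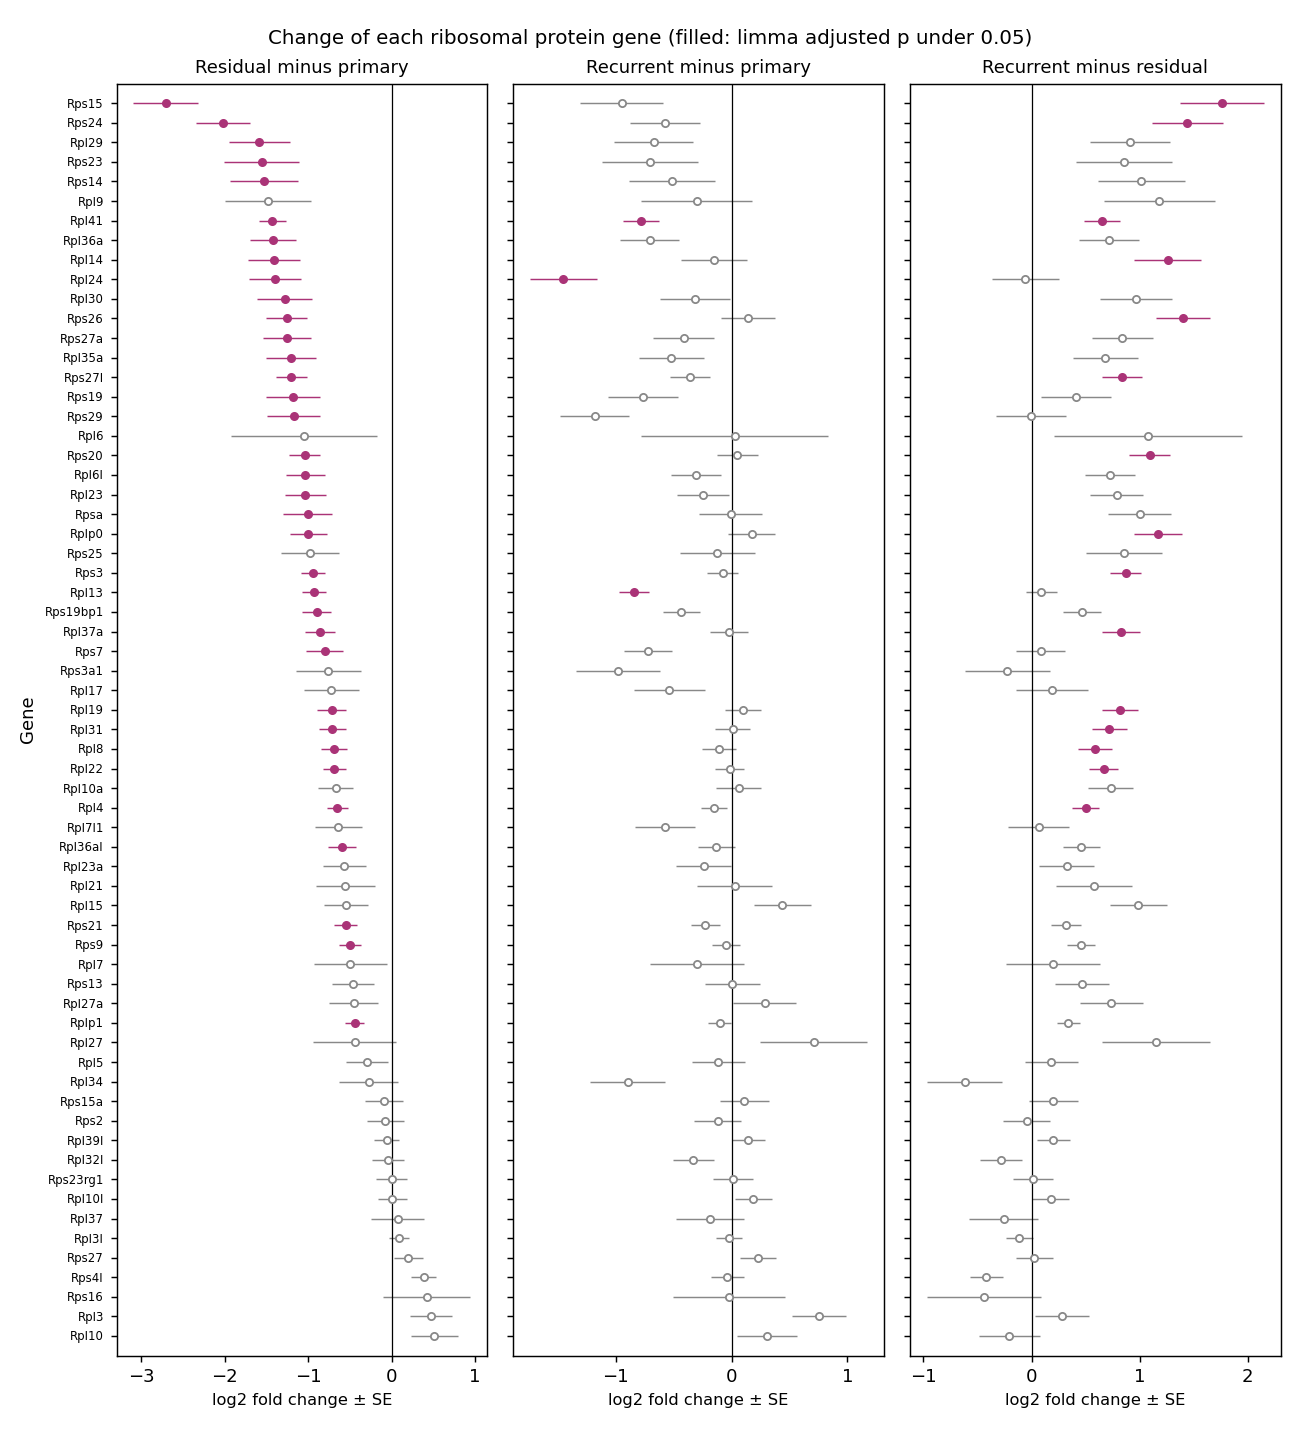
Log2 fold change ± SE of 64 of the 67 ribosomal protein genes in residual against primary cells (left), recurrent against primary cells (middle) and recurrent against residual cells (right), from limma on 11 arrays, with filled points for an adjusted p under 0.05. The left panel holds 35 filled points below 0, the middle panel 3 below 0 and the right panel 15 above 0.

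The members nearest to the middle of the module were Rpl19, Rpl31 and Rpl17, all of the large subunit. Rpl19 read 5.94, 5.95 and 5.70 in residual cells, against 6.80, 6.43, 6.48 and 6.62 in primary cells (log2 change -0.72, SE 0.17, limma adjusted p = 0.017). Rpl31 read 7.34, 7.15 and 6.96 in residual cells, against 7.52, 7.83, 7.92 and 8.16 in primary cells (-0.71, SE 0.16, adjusted p = 0.0143). Rpl17 read 4.67, 3.84 and 4.01 in residual cells, against 4.82, 5.36, 4.10 and 5.30 in primary cells. Its arrays overlapped, and the same change of -0.72, with an SE of 0.33, did not pass (adjusted p = 0.2).

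The members with a mean above 10 had smaller estimates than those between background and 10, and the least spread. Rplp1, an acidic protein of the stalk, read 12.85, 12.71 and 12.74 in residual cells, against 13.19, 13.23, 13.21 and 13.22 in primary cells, near the highest value in the table, 13.34. It changed by -0.44 (SE 0.11, limma adjusted p = 0.0209). Rps21 read 12.02, 11.94 and 12.08 in residual cells, against 12.51, 12.72, 12.52 and 12.49 in primary cells (-0.55, adjusted p = 0.0225). In both genes every residual array lay below every primary array. All 10 members with a mean above 10 fell, with a median of -0.64. The same class over all genes had a median of -0.25, and 24.7% of its 482 genes fell.

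Lower down the scale fewer members fell, and the estimates were more scattered. Of 11 members with a mean between 8 and 10, 8 fell (median -1.0, against -0.20 over all 2228 genes of that class, of which 21.7% fell). Between 6 and 8, 10 of 17 fell (median -0.76, against -0.12 over all genes and 15% falling), and between background and 6, 8 of 18 fell (median -0.93, against 0.06 and 7.28%). At or below background 2 of 11 fell (median -0.00, against 0.08 and 0.505%). Across the 67 members, which share the same arrays, change and mean signal had a Pearson r of -0.19 and a Spearman rho of -0.20, given as a description.

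**Figure D3:**
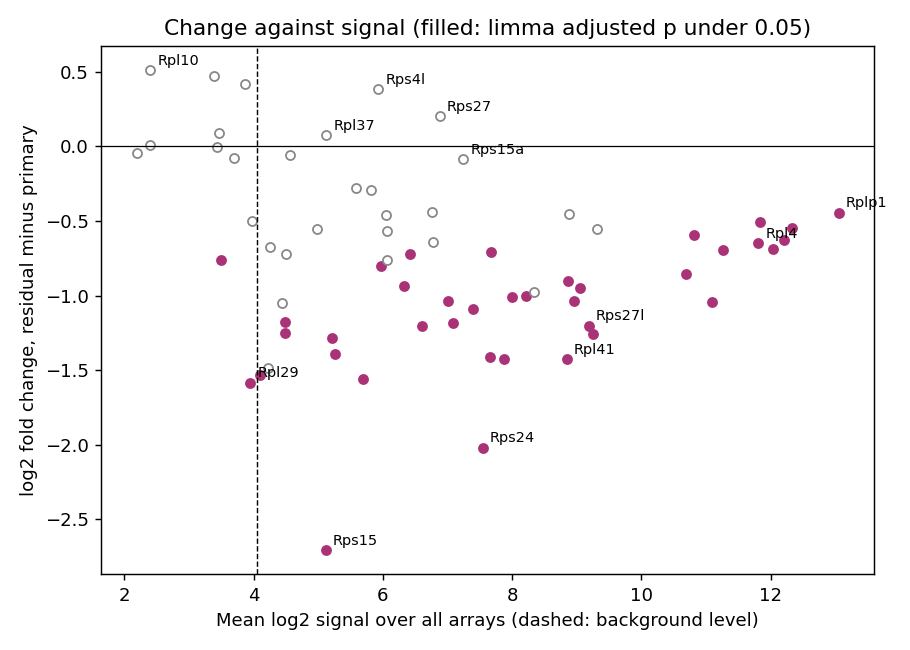
Log2 fold change in residual against primary cells (vertical axis) of each of the 67 members against its mean log2 signal over 11 arrays (horizontal axis), with filled points for a limma adjusted p under 0.05 and a dashed line at the background level of 4.05. Every member with a mean above 10 is filled and below 0, and the widest range of changes lies between the background level and 8.

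A second fit asked which members departed from the rest. Each array was centred on the median of the 67 members before the same limma model was fitted, so that a gene passed when its change differed from that of the median member. In residual against primary cells 20 of 67 members passed, 7 below and 13 above the median member. Over all genes 1.81% passed below and 75.3% above, because centring lifts every gene that did not fall with the members. Fitted without dim genes, 10 members passed, 8 below and 2 above. Centred on the 44 members above background on every array, 19 passed, 2 below and 17 above, so the split depends on the centre.

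Below the median member were Rps15 (departure -1.92, limma adjusted p = 0.00126), Rps24 (-1.23, adjusted p = 0.00347), Rpl41 (-0.64, adjusted p = 0.00644), Rpl36a, Rpl14, Rpl29 and Rps26. Rps15, Rps24 and Rpl41 passed in all 11 fits that left out 1 array, whereas Rpl14 passed in 5, Rpl29 in 5 and Rps26 in 3. When arrays were centred on the 44 members, Rps15 and Rps24 still passed, whereas Rpl41, Rpl36a, Rpl29, Rpl14 and Rps26 did not (adjusted p = 0.124, 0.141, 0.148, 0.206 and 0.39). The departures of Rps15 and Rpl29 rest on residual readings of which 2 and 3 were under their arrays' background.

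Of the 13 members above the median member, 8 had a mean signal at or below background: Rpl3, Rpl3l, Rpl10, Rpl10l, Rpl32l, Rps2, Rps16 and Rps23rg1. Rpl10, which joins late in the maturation of the large subunit, read 2.06, 2.50 and 3.44 in residual cells, against 2.39, 1.86, 2.42 and 1.94 in primary cells. Rpl3, at the peptidyl transferase centre, read 3.64, 3.24 and 3.51 in residual cells, against 2.67, 2.95, 3.04 and 3.30 in primary cells. Rps16 read 4.08, 4.16 and 4.31 in residual cells, against 4.54, 3.40, 2.35 and 4.78 in primary cells, its residual readings all under their own arrays' percentile of olfactory receptor genes. In each of these genes the groups overlapped, and none changed between the groups before centring (adjusted p = 0.292, 0.274 and 0.688 in limma).

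The other 5 were Rps27, Rps4l, Rps15a, Rpl37 and Rpl39l, all with a mean above background. Rps27, a zinc-finger protein of the small subunit, read 6.80, 6.79 and 7.25 in residual cells, against 6.78, 7.01, 6.63 and 6.56 in primary cells. Its level did not pass as changed (0.20, adjusted p = 0.521), and it departed from the median member by 0.99 (limma adjusted p = 0.00101). Rps4l, an autosomal paralogue of Rps4x, read 5.96, 6.23 and 6.47 in residual cells, against 6.02, 5.89, 5.56 and 5.89 in primary cells, and departed by 1.17 (adjusted p = 0.000657) with a change of 0.38 that did not pass (adjusted p = 0.141). Both departures passed in all 11 fits that left out 1 array and when dim genes were left out of the fit. Rps15a (departure 0.70, adjusted p = 0.0296), Rpl37 (0.86, adjusted p = 0.0232) and Rpl39l (0.73, adjusted p = 0.0059) no longer passed when dim genes were left out, with adjusted p of 0.14, 0.131 and 0.131.

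**Figure D4:**
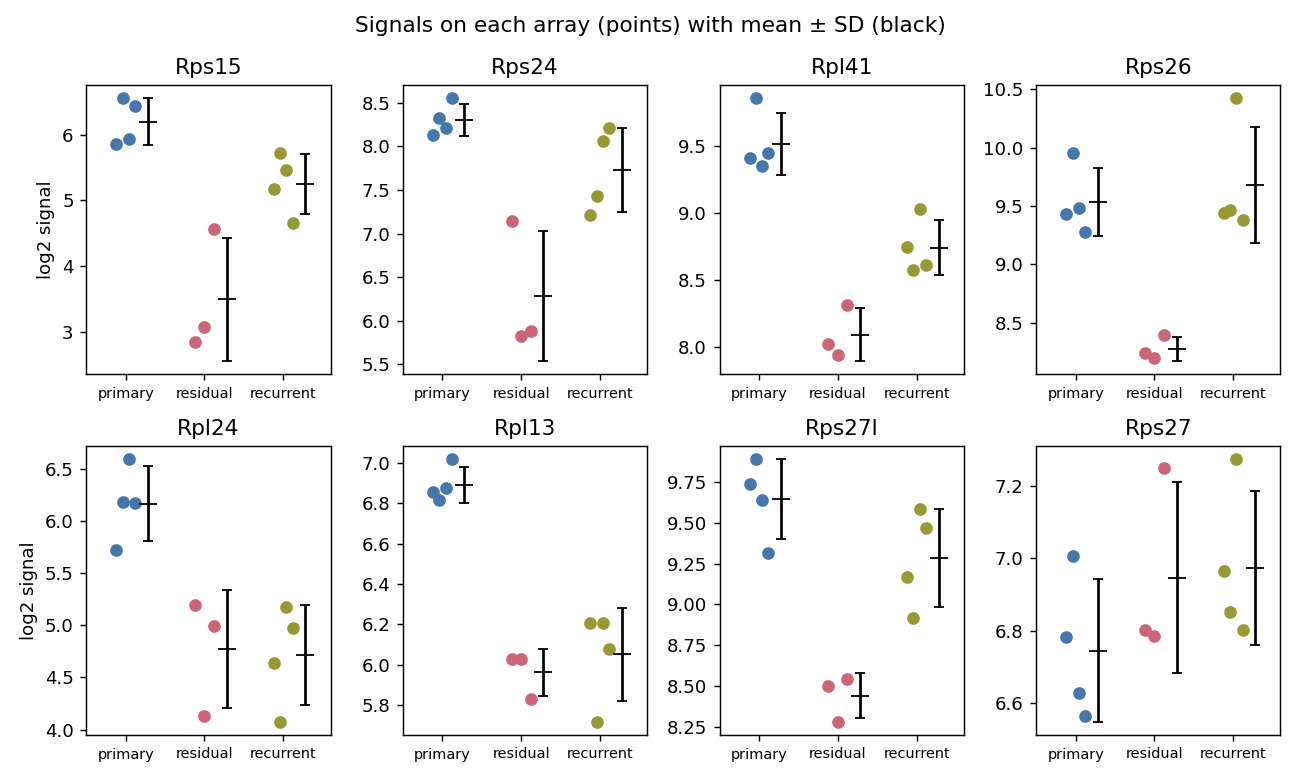
Log2 signals of 8 members on each array, by stage, with the mean ± SD of each group in black (n = 4 primary, 3 residual and 4 recurrent arrays). The vertical axes differ between panels and do not start at 0. Residual arrays are the lowest for Rps15, Rps24, Rpl41, Rps26 and Rps27l, later stages share a low level for Rpl24 and Rpl13, and the groups overlap for Rps27.

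Of the 9 paralogues 3 fell (Rpl6l, Rpl36al and Rps27l), where 7.61% of all genes fell, with a median of -0.06 over the 9. That median includes Rpl3l, Rpl10l and Rpl32l, which were above background on no array, so a fall in them could not be seen. Rps27l, known as a target of p53, fell, whereas the level of Rps27 did not pass. Rps27l read 8.50, 8.28 and 8.54 in residual cells, against 9.74, 9.89, 9.64 and 9.31 in primary cells (log2 change -1.20, SE 0.19, limma adjusted p = 0.00152). The difference of Rps27l over Rps27 on single arrays was 1.29 to 1.70 in residual cells, against 2.75 to 3.01 in primary cells, and 2.07 to 2.67 in recurrent cells, so it was smaller in residual cells and the groups did not overlap. The absolute difference of the probe sets carries no meaning, only its shift between groups.

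The X-linked gene Rpl36a and its autosomal paralogue Rpl36al both fell, Rpl36a by more. Rpl36a read 7.37, 6.59 and 7.31 in residual cells, against 8.23, 8.86, 8.19 and 8.77 in primary cells. Rpl36al read 10.30, 10.47 and 10.51 in residual cells, against 10.92, 11.21, 10.95 and 11.02 in primary cells, and changed by -0.59 (SE 0.17, limma adjusted p = 0.0444), a call held in 3 of 11 fits that left out 1 array. The difference of Rpl36al over Rpl36a was 2.93 to 3.89 in residual cells, against 2.25 to 2.76 in primary cells. For the pairs Rpl7l1 and Rpl7, Rpl3l and Rpl3, and Rpl10l and Rpl10 the paralogue's difference over its parent overlapped between residual and primary cells. In these 3 pairs the parent was at or below background, and so were Rpl3l and Rpl10l. Rpl7l1 read 7.18, 5.94 and 6.43 in residual cells, against 6.80, 7.34, 6.88 and 7.61 in primary cells, and its change of -0.64 did not pass (adjusted p = 0.176). Rpl7 read 4.84, 2.64 and 3.71 in residual cells, against 3.96, 4.43, 3.67 and 4.84 in primary cells. Rpl3l stayed between 3.34 and 3.76, Rpl10l between 1.95 and 2.68 and Rpl32l between 1.90 and 2.79 on all 11 arrays, which is under the background level throughout.

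Few of these genes passed as different between recurrent and primary cells. In recurrent against primary cells 3 of 67 members (4.48%) fell and 0 rose, where 0.986% of all genes fell and 0.818% rose. The median change was -0.13, against -0.01 over all genes, and 48 of 67 estimates lay below 0. At an unadjusted p under 0.05, 13 members were lower and 1 was higher, against 1835 and 1399 of all 23835 genes. All recurrent arrays lay below all primary arrays for 9 members, against 5.38% of all genes.

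The 3 members that fell are of the large subunit and were also lower in residual than in primary cells. Both comparisons use the same primary arrays. Rpl24, in which a mutation causes the belly spot and tail phenotype in mice, read 4.64, 4.08, 5.17 and 4.98 in recurrent cells, against 5.72, 6.18, 6.59 and 6.17 in primary cells. Its change was -1.45 (SE 0.29, limma adjusted p = 0.0281), and residual cells read 5.20, 4.13 and 4.99, the same range as the recurrent ones. Rpl13 read 6.21, 5.72, 6.21 and 6.08 in recurrent cells, against 6.86, 6.82, 6.88 and 7.02 in primary cells (-0.84, SE 0.13, adjusted p = 0.00766). Its residual arrays read 6.03, 6.03 and 5.83, inside the recurrent range. Rpl41 read 8.75, 8.58, 9.03 and 8.61 in recurrent cells, against the primary values given above (-0.78, SE 0.15, adjusted p = 0.0281), and these arrays lay between the residual and the primary ones.

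Rpl24 was also the 1 member to depart from the median member in this comparison (departure -1.20, limma adjusted p = 0.0322), where 0.306% of all genes departed downwards and 1.75% upwards. Of the 3 calls, that of Rpl13 held in all 11 fits that left out 1 array, that of Rpl24 in 6 and that of Rpl41 in 4. Without primary array 2, without primary array 3, or without either of recurrent arrays 1 and 2, 1 member was called.

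Rps29, of the small subunit, did not pass. It read 3.75, 4.03, 4.65 and 3.82 in recurrent cells, against 5.78, 5.49, 5.22 and 4.48 in primary cells (-1.18, limma adjusted p = 0.0781). Its residual arrays read 4.56, 3.93 and 3.71, inside or near the recurrent range. Of the recurrent and residual readings, all but 4.65 and 4.56 were under their own arrays' percentile of olfactory receptor genes. Rps7, also of the small subunit, changed by -0.72 in recurrent against primary cells (adjusted p = 0.121).

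In recurrent against residual cells 16 of 67 members rose and 0 fell, where 3.58% of all genes rose and 2.19% fell. The median change was 0.58, against -0.03 over all genes, and 56 of 67 estimates lay above 0. At an unadjusted p under 0.05, 37 members were higher and 1 was lower, against 2437 and 2269 of all 23835 genes. All recurrent arrays lay above all residual arrays for 27 members, against 8.18% of all genes. Each of the 16 is among the 38 that were lower in residual than in primary cells, but these comparisons share the residual arrays. Residual arrays lay below all 8 other arrays for 25 of 67 members, against 6.1% of all genes.

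Rps26 rose to 9.44, 9.47, 10.42 and 9.38 in recurrent cells, against 8.24, 8.20 and 8.39 in residual cells. The change was 1.40 (SE 0.25, limma adjusted p = 0.00711), and primary cells read 9.43, 9.96, 9.48 and 9.28, which overlap the recurrent ones. Rplp0 read 8.70, 8.62, 8.75 and 8.34 in recurrent cells, against 6.94, 7.35 and 8.0 in residual cells (1.17, SE 0.22, adjusted p = 0.0102). Rpl14 read 7.84, 7.43, 8.56 and 7.92 in recurrent cells, against 6.02, 6.89 and 7.12 in residual cells (1.26, SE 0.31, adjusted p = 0.0354), a call held in 3 of 11 fits that left out 1 array.

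Rps15 and Rps24, with the values given above, had fitted rises of 1.76 (SE 0.39, limma adjusted p = 0.0216) and 1.44 (SE 0.33, adjusted p = 0.0249), each call held in 7 of 11 such fits. By the same bound Rps15 was at least 1.76-fold higher in recurrent cells. Rps20 read 11.30, 11.19, 11.92 and 11.25 in recurrent cells, against 10.18, 10.22 and 10.57 in residual cells (1.09, adjusted p = 0.00584), and Rps3 changed by 0.87 (adjusted p = 0.00488). The calls of Rplp0, Rps3, Rps20 and Rps26 held in all 11 fits that left out 1 array. Without residual array 2 the count of risen members was 6, and without recurrent array 3 it was 8. Fitted on these groups alone, 4 members passed, and with arrays scaled to one median and interquartile range the median change was 0.35.

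After centring on the median member, 10 of 67 departed in recurrent against residual cells, where 1.56% of all genes departed upwards and 45.2% downwards. Rps15 (1.23), Rps24 (0.91), Rps26 (0.87), Rpl14 (0.73) and Rps20 (0.56) departed upwards, each with a limma adjusted p between 0.0105 and 0.0409. Centred on the 44 members above background on every array, 19 departed, 2 upwards and 17 downwards, and Rps24 (adjusted p = 0.0516), Rpl14 (0.115) and Rps20 (0.205) no longer passed. Rps4l (-0.95, limma adjusted p = 0.0069), Rpl34 (-1.15, adjusted p = 0.0231), Rps27 (-0.51, adjusted p = 0.04), Rpl32l and Rpl3l departed downwards. None of these passed as changed before centring, when Rps27 differed by 0.03 (limma adjusted p = 0.956). Rpl32l and Rpl3l were under background on every array. Rpl34, a large-subunit protein, read 5.41, 4.81, 4.93 and 5.19 in recurrent cells, against 4.83, 6.64 and 5.65 in residual cells, whose arrays spread widely. Rps26 and Rps4l passed in all 11 fits that left out 1 array, and Rps27 in 2.

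Put in order, the residual mean was the lowest of the 3 stages for 53 of 67 members and the primary mean the highest for 44. For 38 members the recurrent mean lay between the residual and the primary mean, and for 15 it lay above both, with residual cells lowest. In 6 members recurrent cells were lowest with residual cells between, and in 4 recurrent cells were lowest with residual cells highest. These orders were not counted over all genes, and they include the 11 members with a mean at or below background.

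Other genes of ribosome production were read from lists chosen with earlier results of these data known. Rack1 and Fau, the measured ribosomal proteins outside the naming rule, were lower in residual than in primary cells. Rack1, a scaffold on the small subunit, read 11.6 ± 0.01 in residual and 12.3 ± 0.06 in primary cells (log2 change -0.64, limma adjusted p = 0.00328). Fau changed by -0.72 (adjusted p = 0.0379).

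Ribosome biogenesis factors were lower in residual cells as well. In residual against primary cells 35 of 52 were lower and 0 higher, with a median of -0.78, where 7.61% of all genes were lower. All 52 had means above background in both groups, whereas all genes include 10700 at or below background, of which 0.505% fell. In the brighter classes 7.28% to 24.7% fell. The lists below, mostly above background too, stand beside the same share of all genes. Nop56, a core protein of the particles that methylate ribosomal RNA, read 7.23 ± 0.44 in residual and 8.72 ± 0.13 in primary cells (mean ± SD, n = 3 and 4), a change of -1.49 (limma adjusted p = 0.000423). Dkc1, the pseudouridine synthase of ribosomal RNA, changed by -1.30 (adjusted p = 0.000536) and its partner Nhp2 by -1.28 (adjusted p = 0.00236). In recurrent against residual cells 19 of 52 were higher, where 3.58% of all genes were, led by Dkc1 (1.23, adjusted p = 0.00147) and Nop16 (1.15, adjusted p = 0.00847). In recurrent against primary cells 0 of 52 passed in limma, with 17 lower at an unadjusted p under 0.05.

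Of 12 measured genes of RNA polymerase I, which transcribes ribosomal RNA, 5 were lower in residual than in primary cells and 0 higher (median -0.46, with 7.61% of all genes lower). The subunits Polr1b and Polr1a changed by -1.18 (limma adjusted p = 0.00467) and -1.0 (adjusted p = 0.016). In recurrent against residual cells 3 were higher (median 0.28, with 3.58% of all genes higher), the initiation factor genes Taf1a (1.03, adjusted p = 0.0128) and Taf1d (0.92, adjusted p = 0.00987) and the subunit Polr1d (0.54, adjusted p = 0.0241).

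Translation factors gave smaller medians than ribosome biogenesis factors, and their counts stand against the same shares of all genes, 7.61% lower and 3.58% higher. Of 14 elongation factors and other TOP messages 7 were lower in residual than in primary cells (median -0.57), among them Pabpc1, the poly(A)-binding protein (-0.75, limma adjusted p = 0.00367), and Eef1d, an exchange factor (-0.75, adjusted p = 0.00359). Of 31 initiation factors 14 were lower (median -0.48), led by the cap-binding protein Eif4e (-1.36, adjusted p = 0.00266) and Eif2s1, the alpha subunit of eIF2 (-1.21, adjusted p = 0.000424). In recurrent against residual cells 4 of 14 and 7 of 31 were higher, and in recurrent against primary cells 0 passed in either list in limma, with 2 and 7 lower at an unadjusted p under 0.05.

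Of 23 genes of MYC and mTORC1 control 3 were lower and 1 higher in residual than in primary cells, with a median of -0.20, where 7.61% of all genes were lower and 4.81% higher. These counts lie near the shares of all genes and are no result about the list. Eif4ebp1, the cap-binding inhibitor that mTORC1 inactivates, changed by -1.09 (limma adjusted p = 0.00467), Larp1, which binds TOP messages, by -0.63 (adjusted p = 0.0168), and Mxd1, a MYC antagonist, by -0.92 (adjusted p = 0.0442). Mxd4, another MYC antagonist, was higher (0.89, adjusted p = 0.0208). In recurrent against primary cells Mxd1 was lower (-1.35, adjusted p = 0.0196), and in recurrent against residual cells 0 passed in limma, with 3 higher and 1 lower at an unadjusted p under 0.05.

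**Figure D5:**
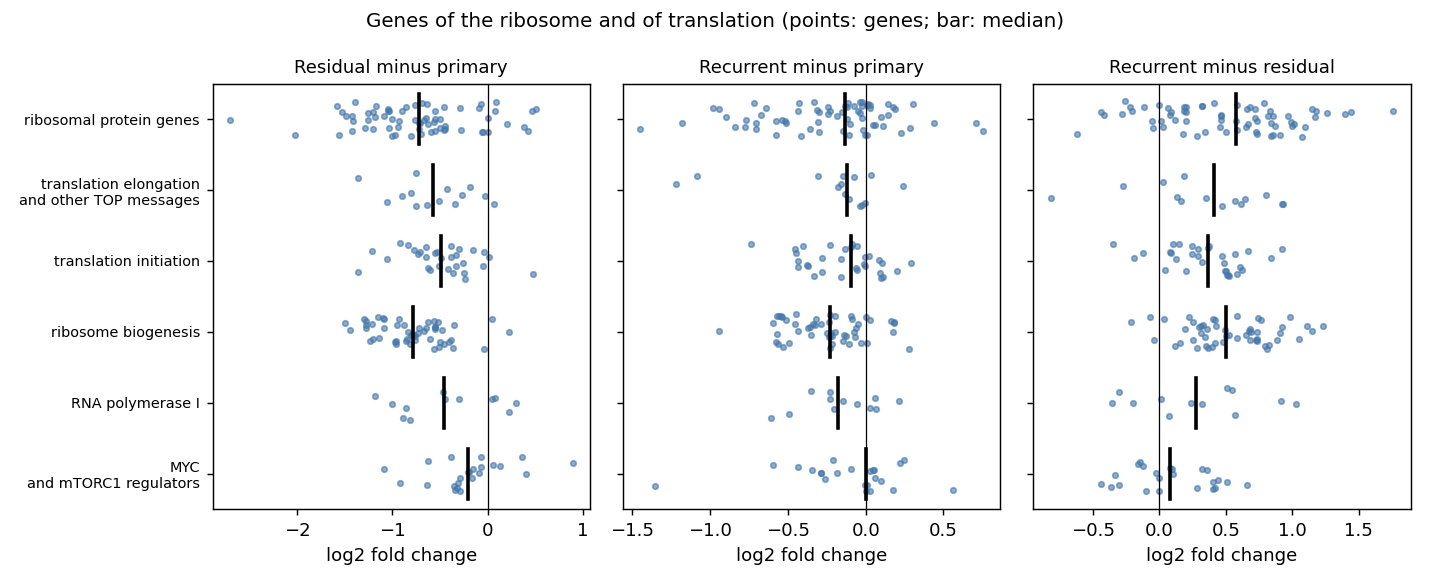
Log2 fold changes (horizontal axis) of the genes of 6 lists, 1 point a gene with a bar at the median, with residual minus primary on the left, recurrent minus primary in the middle and recurrent minus residual on the right. The medians of ribosomal protein genes and ribosome biogenesis are -0.72 and -0.78 in the left panel and 0.58 and 0.50 in the right panel, whereas that of MYC and mTORC1 regulators is -0.20 and 0.08.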

How the data were processed

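Per the submitters' processing notes, the authors made the deposited log2 signals with RMA (background correction, normalization across arrays and probe summary) in R 3.0.2. The table holds 24479 rows, 1 probe set per Entrez Gene identifier, for 11 arrays, and was used as deposited. Which version of the probe annotation was used is not stated in the sources, and the number of arrays, not a depth, limits the precision. Probe sets of genes with near-identical pseudogenes may also bind their transcripts.

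Names came from the platform's table for 23281 rows and through the gene identifier in a reference table (GRCm38.p6) for 556, among them Rps27a. The other 642 rows had no name and were left out. Where a symbol had 2 rows the brighter was kept, leaving 23835 genes. Sample titles gave the groups. The rule left out 10 pseudogene and 10 kinase rows. A filter on dim genes, used as an alternative, kept 13712 genes, 59 members among them.

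All 3 groups were fitted in limma 3.58.1 (R 4.3.3) with 8 residual and 3.46 prior degrees of freedom, without a replicate block. Two-sided p-values were adjusted (Benjamini-Hochberg) across all 23835 genes. Departures came from the same fit after each array was centred on the median of the members. The steps were tested on simulated data. The members, the lists of genes and markers and the tests were chosen with earlier results of these data known. Values on every array were to be given for the 5 called members with the largest rise and fall in each comparison, the 10 largest departures, the 3 members nearest the median change, the 3 brightest, the 3 dimmest and the paralogue pairs. From a list, the 4 called genes that changed most could be named, or the 2 with the lowest p in a list without calls. Other members are named for what they show, and some members of the counts are not reported here by name.

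Alternatives were 3 scalings of the arrays, leaving out dim genes, only the compared groups, the replicate number as a block, a trended spread, array weights (statmod 1.5.0), unnamed rows kept, structural proteins only, other centres for the departures, an adjusted p under 0.01 and leaving out each array in turn. Counting only members with a mean above background was added after the data had been seen, as were the fold bounds for readings under an array's own background. Replicate numbers were shared by the groups, but same-numbered arrays did not deviate together (correlation across genes of deviations from the group means, -0.08 to 0.02), so they were not taken as pairs. Plots were made in Python 3.11.15 with matplotlib 3.10.9.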

Additional observations from a re-analysis of the deposited data

Results flagged for a closer look

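In groups of 4 arrays, 4 of 64 sets of readings had 1 array standing apart from the other 3 by Dixon's criterion, where chance gives about 1 in 20. Rps23 read 4.17 on recurrent array 4, while the other recurrent arrays read 6.09 to 6.34. Rps26 read 10.42 on recurrent array 3, above 9.38 to 9.47 on the others. Rpl3 read 2.99 on recurrent array 3, below 3.93 to 4.04 on the others, all under the background level. Rps21 read 12.72 on primary array 2, above 12.49 to 12.52 on the others. Groups of 3 residual arrays were not examined in this way.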

How the results depend on the processing

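No change of a named member that had passed took the opposite sign under any alternative, and no count gained members of the other direction for changes of level in residual against primary or recurrent against residual cells. Members lower in residual than in primary cells were 39, 33 and 30 under the 3 scalings (centred medians, a second quantile normalization, and one median and interquartile range) and 14 at an adjusted p under 0.01, and leaving out single arrays gave 24 to 38, with 17 of the 38 called in all 11 such fits. Their median change was -0.83 over members above background and -0.79 to -0.68 with single arrays left out. Centring on medians changed the share of all called genes that were higher in residual cells to 27.8%, against 38.7% in the values as reported. In recurrent against primary cells 1 member was called at an adjusted p under 0.01 and 1 to 4 with single arrays left out (median change -0.27 to -0.10), and in recurrent against residual cells 3 were called at an adjusted p under 0.01, 4 in a fit of those groups alone and 6 to 15 with single arrays left out. The median there was 0.35 with arrays scaled to one median and interquartile range and 0.46 to 0.62 with single arrays left out.

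Departures were less stable. In residual against primary cells 10 members departed without dim genes, 13 among structural proteins only, 10 at an adjusted p under 0.01, 9 among members above background and 14 to 21 with single arrays left out. In recurrent against primary cells the counts were 2 without dim genes, 3 with array weights, 0 at an adjusted p under 0.01 and 0 to 5 with single arrays left out. In recurrent against residual cells they were 4 without dim genes, 4 in a fit of those groups alone, 6 for structural proteins, 1 at an adjusted p under 0.01, 19 when centred on members above background on every array (2 upwards and 17 downwards), 5 among members above background and 5 to 14 with single arrays left out. The causes were not tested. With the replicate number as a block, 33 members were called in residual against primary cells, 2 in recurrent against primary cells and 9 in recurrent against residual cells, but the numbers do not pair the samples. Signal near background limits what can be seen of the 11 dimmest members.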
